A study of Mus musculus with 8 samples.

Results

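Bone marrow MSCs are adherent stromal cells that can give rise to osteoblasts, adipocytes and chondrocytes, and macrophages of the same marrow adhere beside them. The genes described here are 10 that are widely used to mark macrophages and leukocytes: *Lyz2*, *Mpeg1*, *Cd68*, *Laptm5*, *Tyrobp*, *Fcer1g*, *Csf1r*, *Cd14*, *Mrc1* and *Ptprc*. They were taken by symbol from the deposited expression table, and all 10 were among its 24346 genes. RNA was measured in 8 libraries of C57BL/6 bone marrow MSCs at passage 4, with 2 libraries in each of 4 groups. WT undifferentiated and *Dnmt3l* KO undifferentiated MSCs had been kept in αMEM with 20% fetal bovine serum. WT differentiating and *Dnmt3l* KO differentiating MSCs had been under osteogenic induction for 3 days, in αMEM with 10% serum, 0.1 μM dexamethasone, 10 mM β-glycerophosphate and 50 μM ascorbic acid 2-phosphate. WT cells came from littermates of the KO mice, the cells of several mice were mixed by genotype, and neither the labels nor the methods tell if the 2 libraries of a group go back to separate mixes. The p-values therefore measure the spread between these libraries, which may be technical.

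All groups share a step that bears on these genes. According to the study's methods, the MSCs were depleted of cells that carried CD11b, the product of *Itgam*, or CD45, the product of *Ptprc*, which are the gates that remove macrophages and other leukocytes. Values are RPKM, read counts divided by transcript length in kilobases and by the library's size, so that levels of different genes can be set side by side. The depth was estimated at 48.2 to 66.5 M scaled reads per library, deepest in WT differentiating replicate 1. *Dnmt3l*, the targeted gene, stood at 1.56 and 1.09 RPKM in WT undifferentiated and at 0.845 and 0.830 RPKM in WT differentiating MSCs, and is listed at 0 in the 4 KO libraries. The 10 stromal markers examined, *Pdgfrb* and *Thy1* among them, summed to 2129 to 3799 RPKM. Against this, the 10 macrophage and leukocyte genes together summed to 10.3 to 39.9 RPKM. In either state 0 of the stromal markers differed between genotypes by more than 2-fold in limma. Of these, 8 before and 9 after induction had an unadjusted p under 0.05. For *Cd44* and *Col1a1*, the change upon induction was more negative in the KO by more than that limit.

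Macrophages take up and digest microbes, debris and lipoproteins, and much of what marks them serves this work. Lysozyme and the pore-forming protein of *Mpeg1* attack bacteria, CD68 and LAPTM5 sit in lysosomal membranes, the mannose receptor of *Mrc1* and CD14 bind sugars and lipopolysaccharide at the surface, and the adaptors of *Tyrobp* and *Fcer1g* pass signals from activating receptors that have no signalling tail of their own. The receptor of *Csf1r* binds the growth factors CSF1 and IL-34, on which most macrophages depend. In marrow, macrophages share the stromal niche with osteoblast precursors and give rise to osteoclasts.

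The summed level of the set, in which *Lyz2* had the largest share, was higher in WT than in KO libraries and higher after induction than before it. Not all single genes ran this way. *Csf1r*, *Fcer1g* and *Ptprc* were lower after induction in both genotypes, and *Cd14* was higher in the KO in both states. Summed RPKM ran from 20.8 to 21.9 in WT undifferentiated, 34.9 to 39.9 in WT differentiating, 10.3 to 11.2 in KO undifferentiated and 14.9 to 15.8 in KO differentiating MSCs. *Lyz2* made up 61.5% of the sum in WT undifferentiated and 66.0% in WT differentiating MSCs, but 30.8% in KO undifferentiated and 47.1% in KO differentiating MSCs. *Cd14* made up 6.32% and 9.23% of the WT sums and 22.2% and 31.2% of the KO sums, in the same order of states. In bulk RNA, fewer cells of a type and less RNA per cell cannot be told apart.

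Tests used limma on log2(RPKM + 0.1), with 1 mean per group and all 8 libraries in the fit, over the 15342 genes that averaged 0.1 RPKM or more. *Ptprc*, with a mean of 0.0605 RPKM, fell below that minimum, which leaves 9 of the 10 genes tested. A gene counts as changed where its log2 fold change lay above 1 or below -1 with a Benjamini-Hochberg adjusted p under 0.05 over all genes. All log2 values below are differences of log2(RPKM + 0.1), a scale that understates the change of low genes. The 5 contrasts draw on the same 8 libraries and share groups.

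In undifferentiated MSCs, 3 of the 9 genes (*Lyz2*, *Tyrobp* and *Laptm5*) were lower in the KO and 0 were higher (2 at an unadjusted p under 0.05 in limma), where 1.09% of all genes tested were lower and 0.613% were higher. The median log2 fold change of the 9 was -0.71, against -0.0027 over all genes. In differentiating MSCs, 5 of the 9 (*Lyz2*, *Tyrobp*, *Laptm5*, *Fcer1g* and *Mrc1*) were lower in the KO and 0 were higher (1 at an unadjusted p under 0.05), with 1.95% of all genes lower and 1.36% higher. Here the median of the 9 was -1.69, against -0.0067 over all genes. With a pseudocount of 1 in place of 0.1, only *Lyz2* passed before induction and only *Lyz2* and *Mrc1* after it.

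Induction raised 3 of the 9 genes in WT MSCs (*Mrc1*, *Mpeg1* and *Cd14*) and lowered 0 (2 at an unadjusted p under 0.05), where 9.69% of all genes rose and 4.63% fell. Quantile normalization shifted that background from 1487 higher and 711 lower to 1212 higher and 937 lower. Without WT undifferentiated replicate 2 the count among the 9 was 5, with *Tyrobp* at a log2 fold change of 1.07 and *Csf1r* at -1.02 added. Without WT differentiating replicate 1 it was also 5, with *Tyrobp* at 1.24 and *Lyz2* at 1.01 added. In KO MSCs, *Mpeg1* and *Lyz2* rose and *Csf1r* and *Fcer1g* fell, with 13.0% of all genes higher and 9.87% lower. The change upon induction differed between genotypes by more than the same limits for 3 genes, *Mrc1*, *Tyrobp* and *Csf1r*, each more negative in the KO, where 3.42% of all genes were more negative and 2.76% more positive. With a pseudocount of 1, *Mrc1* in WT and *Csf1r* in KO MSCs alone passed upon induction, and 0 genes differed in their change.

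**Figure D1:**
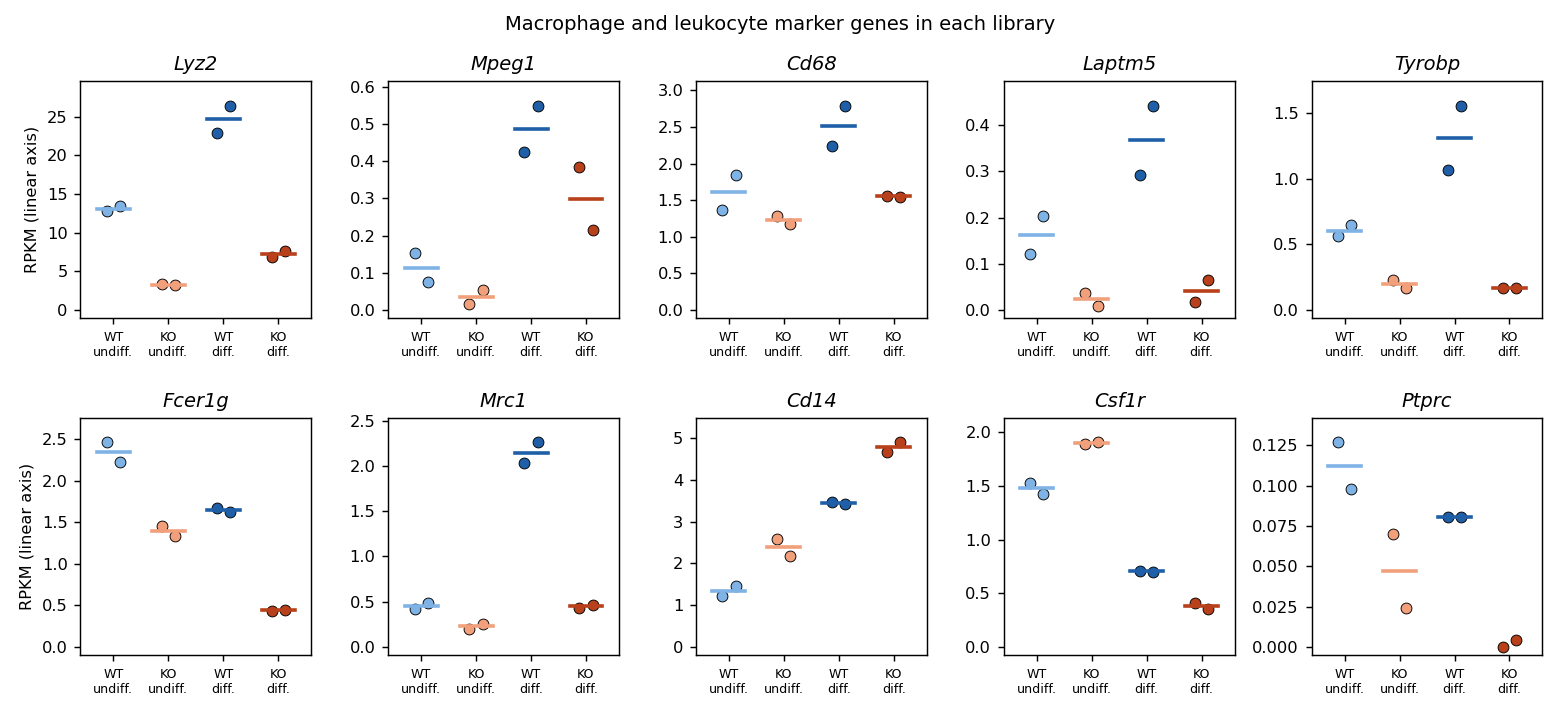
Expression of the 10 macrophage and leukocyte marker genes in RPKM on linear axes, 1 panel per gene with its own scale. Each dot is a library (2 per group), each bar the group mean, drawn where both libraries are above 0. *Lyz2*, *Laptm5* and *Tyrobp* sit lower in KO than in WT libraries in both states, whereas *Cd14* sits higher (4.67 and 4.90 RPKM in KO differentiating against 3.48 and 3.43 in WT differentiating MSCs).

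Among the proteins of the lysosome and of killing, *Lyz2*, which encodes the lysozyme of macrophages and other myeloid cells, had the highest level of the 10 genes in every group. It lies on the minus strand of chromosome 10 in mm10, from 117277331 to 117282321. Its values were 12.8 and 13.4 RPKM in WT undifferentiated, 3.43 and 3.19 in KO undifferentiated, 22.9 and 26.5 in WT differentiating and 6.81 and 7.66 in KO differentiating MSCs. The groups were in the order KO undifferentiated, KO differentiating, WT undifferentiated, WT differentiating, and no neighbours in that order overlapped. *Lyz2* was 3.97-fold lower in KO than in WT undifferentiated MSCs, at 3.31 ± 0.168 against 13.1 ± 0.391 RPKM (mean ± SD, n = 2), a log2 fold change equal to -1.96 (standard error 0.09, adjusted p = 0.000194). It was 3.41-fold lower in KO than in WT differentiating MSCs, at 7.24 ± 0.599 against 24.7 ± 2.49 RPKM (SD, n = 2), a log2 fold change equal to -1.76 (standard error 0.09, adjusted p = 0.000379). Both calls held under all 20 alternatives, with log2 fold changes between -2.01 and -1.71 before induction and between -1.86 and -1.64 after it. Upon induction *Lyz2* was 1.88-fold higher in WT (log2 fold change 0.90, adjusted p = 0.000258) and 2.19-fold higher in KO MSCs (1.11, adjusted p = 6.4e-05). The difference between these changes was 0.20 (adjusted p = 0.251).

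*Lyz1*, the lysozyme gene used by Paneth cells of the gut, lies 5475 bases upstream of *Lyz2* on the same strand, and the transcripts of this pair share sequence. Of the 1267 windows of 50 bases in the *Lyz2* transcript, 195 (15.4%) also occur in *Lyz1*, whereas 0 windows of the other 9 genes occur elsewhere, so the division of reads between the 2 lysozyme genes is uncertain. *Lyz1* stood at 2.34 and 2.48 RPKM in WT undifferentiated, 0.469 and 0.531 in KO undifferentiated, 4.18 and 4.80 in WT differentiating and 1.05 and 1.44 in KO differentiating MSCs. It was lower in the KO in both states, with -2.06 (adjusted p = 0.000684) and -1.78 (adjusted p = 0.00108) on the log2 scale. With the pair summed, an alternative chosen after seeing the data, the log2 fold changes between genotypes were -2.0007 and -1.77, and no call changed.

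The start regions of *Lyz1* and of the 4 members that were lower in the KO in at least 1 state and are in the table are shown, because the ETS factor PU.1, the product of *Spi1*, is known to drive such genes in myeloid cells. The sequences are from RefSeq on GRCm38.p6, the mm10 assembly, from 250 bases before to 50 bases after the start site in the direction of the gene, and 7 of the 10 members were matched in the table. *Tyrobp*, *Cd14* and *Csf1r* were not matched. Capitals mark the PU box GAGGAA and the longer ETS motif AGGAAGT, either as such or as their complements TTCCTC and ACTTCCT. The motifs share the letters AGGAA, so a single site can match both. In the labels below, chr10.0, chr4.0 and chr2.0 stand for chromosomes 10, 4 and 2.
Lyz2, chr10.0:117282223-117282522, minus strand: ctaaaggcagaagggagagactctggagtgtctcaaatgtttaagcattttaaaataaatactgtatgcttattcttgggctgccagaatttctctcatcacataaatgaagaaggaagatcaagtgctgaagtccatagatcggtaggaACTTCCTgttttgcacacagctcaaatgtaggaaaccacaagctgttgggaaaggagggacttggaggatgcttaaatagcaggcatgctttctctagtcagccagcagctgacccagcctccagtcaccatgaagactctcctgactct
Lyz1, chr10.0:117292819-117293118, minus strand: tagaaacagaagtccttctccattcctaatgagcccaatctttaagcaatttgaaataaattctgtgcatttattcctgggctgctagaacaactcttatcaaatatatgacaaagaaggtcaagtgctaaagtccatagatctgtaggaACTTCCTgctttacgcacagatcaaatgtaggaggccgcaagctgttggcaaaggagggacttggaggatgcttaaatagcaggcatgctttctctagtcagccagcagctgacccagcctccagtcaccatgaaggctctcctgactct
Laptm5, chr4.0:130913066-130913365, plus strand: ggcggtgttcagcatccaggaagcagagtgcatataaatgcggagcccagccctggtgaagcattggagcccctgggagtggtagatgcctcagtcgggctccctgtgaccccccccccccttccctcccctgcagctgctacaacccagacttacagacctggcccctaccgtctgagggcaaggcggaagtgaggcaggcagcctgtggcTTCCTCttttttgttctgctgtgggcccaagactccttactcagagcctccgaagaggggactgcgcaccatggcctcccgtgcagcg
Fcer1g, chr1:171234300-171234599, minus strand: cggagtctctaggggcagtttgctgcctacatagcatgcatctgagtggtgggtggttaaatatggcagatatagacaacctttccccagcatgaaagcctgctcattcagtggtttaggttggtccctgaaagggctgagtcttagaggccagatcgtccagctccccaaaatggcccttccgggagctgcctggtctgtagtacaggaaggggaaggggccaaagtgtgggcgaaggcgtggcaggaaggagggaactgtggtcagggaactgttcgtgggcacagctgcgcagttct
Mrc1, chr2.0:14229164-14229463, plus strand: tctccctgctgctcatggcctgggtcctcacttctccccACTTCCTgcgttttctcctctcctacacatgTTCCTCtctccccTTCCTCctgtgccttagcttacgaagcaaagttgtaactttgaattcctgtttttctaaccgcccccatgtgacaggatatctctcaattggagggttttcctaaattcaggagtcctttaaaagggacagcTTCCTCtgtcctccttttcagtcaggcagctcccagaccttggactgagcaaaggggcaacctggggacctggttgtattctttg

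GAGGAA was found on either strand in 4 of the 7 members (*Cd68*, *Ptprc*, *Laptm5* and *Mrc1*) and in 28.3% of the 32817 promoters of the table. AGGAAGT was found in 3 of the 7 (*Lyz2*, *Ptprc* and *Mrc1*) and in 9.35% of all promoters. *Fcer1g* and *Mpeg1* hold neither motif. In *Lyz2* and in *Lyz1* the longer motif lies at the same place, with its first letter at position -100 from the start site. The windows of the 2 lysozyme genes were identical at 201 of 300 bases (67.0%), and at 141 (94.0%) of the last 150. These matches describe the letters only. *Spi1* itself stood at 0.0900 and 0.0690 RPKM in WT undifferentiated and 0.0923 and 0.155 in WT differentiating MSCs. It is listed at 0 in 3 of the 4 KO libraries and at 0.0178 RPKM in KO undifferentiated replicate 2. Its mean was too low for the limma test. By the depth estimate, about 14 reads in WT and 2 in KO undifferentiated MSCs gave a KO to WT ratio of 0.147 (exact 95% interval 0.0162 to 0.639). In differentiating MSCs, 25 against 0 reads gave a ratio of 0 (0 to 0.188). Both intervals cover counting error only.

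*Mpeg1*, on the plus strand of chromosome 19 from 12460779 to 12465283, was the only member to pass the test in the same direction upon induction in both genotypes. It stood at 0.153 and 0.0754 RPKM in WT undifferentiated, 0.425 and 0.550 in WT differentiating, 0.0150 and 0.0536 in KO undifferentiated and 0.384 and 0.215 in KO differentiating MSCs. The order was KO undifferentiated, WT undifferentiated, KO differentiating, WT differentiating, without overlap between neighbours. The rise was 1.47 on the log2 scale in WT (standard error 0.31, adjusted p = 0.00672) and 1.55 in KO MSCs (standard error 0.31, adjusted p = 0.00428). As a ratio of mean RPKM it was 4.28-fold in WT and 8.72-fold in KO MSCs, from levels near or below the added 0.1 RPKM. Between genotypes *Mpeg1* did not pass the test, with log2 fold changes of -0.66 (adjusted p = 0.154) before and -0.58 (adjusted p = 0.186) after induction. About 47 reads in WT and 14 in KO undifferentiated MSCs, both libraries added, stood behind these values, a depth-corrected KO to WT ratio of 0.306 (exact 95% interval 0.156 to 0.566). Such intervals cover counting error only.

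*Cd68*, on the minus strand of chromosome 11 from 69664213 to 69666153, encodes macrosialin, a glycoprotein of lysosomes, and differed less between groups than *Lyz2* or *Laptm5*. Its values were 1.36 and 1.85 RPKM in WT undifferentiated, 1.28 and 1.18 in KO undifferentiated, 2.24 and 2.79 in WT differentiating and 1.56 and 1.55 in KO differentiating MSCs. The KO differentiating values fell between those of the 2 WT undifferentiated libraries, whereas the other neighbours in the order did not overlap. The log2 fold change between genotypes was -0.34 (adjusted p = 0.154) before and -0.65 (adjusted p = 0.0218) after induction, under the fold limit in each state. Upon induction it was 0.62 (adjusted p = 0.0153) in WT and 0.31 (adjusted p = 0.127) in KO MSCs. *Cd68* starts 782 bases after the end of *Eif4a1*, a translation factor gene on the same strand with group means of 341 to 617 RPKM, and whether reads of that gene add to the *Cd68* values was not tested.

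*Laptm5*, on the plus strand of chromosome 4 from 130913125 to 130936141, encodes a lysosomal membrane protein of blood cells. It stood at 0.120 and 0.204 RPKM in WT undifferentiated, 0.0378 and 0.00918 in KO undifferentiated, 0.292 and 0.443 in WT differentiating and 0.0181 and 0.0643 in KO differentiating MSCs. The 2 KO groups overlapped, and every KO library was below every WT library. In differentiating MSCs it was 8.91-fold lower in the KO (log2 fold change -1.73, standard error 0.30, adjusted p = 0.00714). In undifferentiated MSCs it was 6.91-fold lower (log2 fold change -1.08, standard error 0.30, adjusted p = 0.0392). That call was lost without any 1 of the 4 libraries compared, with an adjusted p of 0.0603 without WT replicate 1, 0.163 without WT replicate 2, 0.0839 without KO replicate 1 and 0.155 without KO replicate 2. Behind the values stood about 39 reads in WT and 5 in KO undifferentiated MSCs, a ratio of 0.132 (exact 95% interval 0.0405 to 0.335). In differentiating MSCs it was 101 against 10 reads, a ratio of 0.117 (0.0546 to 0.225). Upon induction the log2 fold change was 0.83 (adjusted p = 0.04999) in WT and 0.18 (adjusted p = 0.605) in KO MSCs.

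The 2 signalling adaptors partly stand in for each other in myeloid cells. *Tyrobp*, which encodes DAP12, lies on the plus strand of chromosome 7 from 30413760 to 30417585. It stood at 0.562 and 0.646 RPKM in WT undifferentiated, 1.07 and 1.56 in WT differentiating, 0.229 and 0.167 in KO undifferentiated and 0.164 and 0.167 in KO differentiating MSCs. The KO groups overlapped and lay below all WT libraries. *Tyrobp* was 3.05-fold lower in KO undifferentiated (log2 fold change -1.25, standard error 0.20, adjusted p = 0.0072) and 7.92-fold lower in KO differentiating MSCs (-2.39, standard error 0.20, adjusted p = 0.000981).

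The *Tyrobp* transcript is short, and each KO library held only 3.25 to 4.38 reads of it by the depth estimate. A level of 3 reads corresponds to 0.114 to 0.157 RPKM, just under the KO values. With the libraries of a group added, 24 against 7 reads gave a KO to WT ratio of 0.300 (exact 95% interval 0.109 to 0.717) before induction, and 59 against 6 gave 0.120 (0.0425 to 0.278) after it. Upon induction the log2 fold change was 0.99 (adjusted p = 0.00594) in WT, short of the fold limit, and -0.16 (adjusted p = 0.511) in KO MSCs. The difference between these was -1.14 (standard error 0.28, adjusted p = 0.0234). Leaving out any 1 of 6 libraries ended that call, with adjusted p between 0.0523 and 0.0744, and only leaving out WT differentiating replicate 1 or KO undifferentiated replicate 2 kept it.

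*Fcer1g*, on the minus strand of chromosome 1 from 171229572 to 171234365, encodes the common γ chain of Fc receptors. It stood at 2.46 and 2.23 RPKM in WT undifferentiated, 1.67 and 1.63 in WT differentiating, 1.46 and 1.33 in KO undifferentiated and 0.437 and 0.444 in KO differentiating MSCs. All 4 groups were separate, and both genotypes were lower after induction. The fall in KO MSCs was 3.17-fold (log2 fold change -1.47, standard error 0.08, adjusted p = 1.39e-05), whereas in WT the log2 fold change was -0.48 (adjusted p = 0.00271), under the fold limit. *Fcer1g* was 3.74-fold lower in KO than in WT differentiating MSCs (log2 fold change -1.69, standard error 0.08, adjusted p = 0.000331). In undifferentiated MSCs the log2 fold change was -0.71 (adjusted p = 0.00254), under the fold limit. By the depth estimate, the KO differentiating libraries held only about 10.5 and 10.6 reads of *Fcer1g*. The WT differentiating libraries held about 53.7 and 40.0. An interval for counting error was not computed for this gene.

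**Figure D2:**
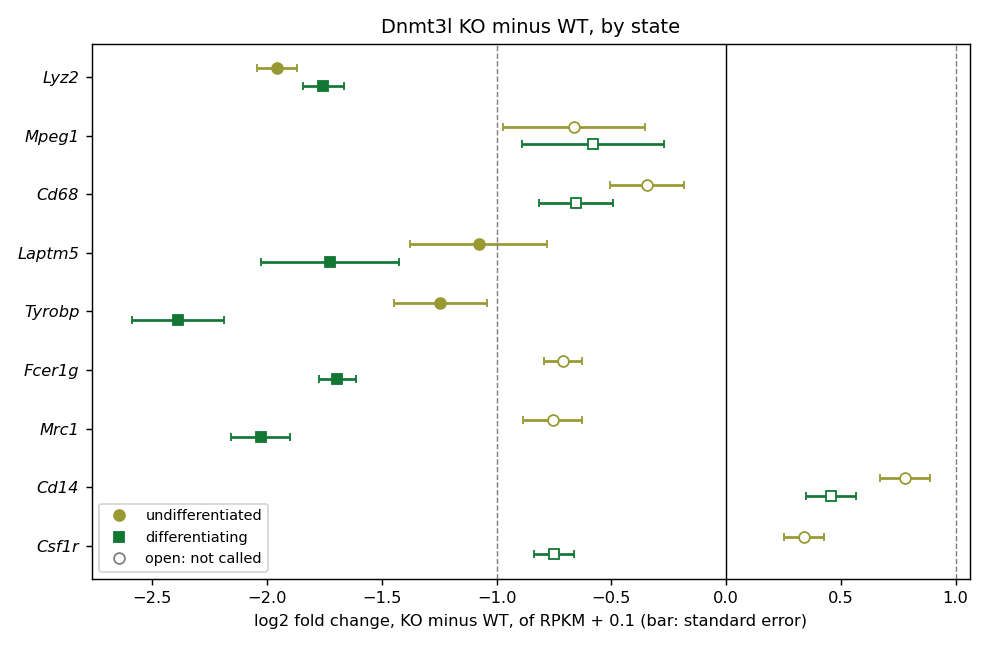
Log2 fold change of RPKM + 0.1, KO minus WT, for the 9 genes tested, in undifferentiated (circles) and differentiating MSCs (squares), with standard errors as bars. Dashed lines mark the fold limit and filled symbols the calls, which are *Lyz2*, *Laptm5* and *Tyrobp* in both states and *Fcer1g* and *Mrc1* in differentiating MSCs. *Cd14* lies to the right of 0 in both states, and *Csf1r* at 0.34 before and -0.75 after induction.

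Among the surface receptors, *Mrc1* encodes the mannose receptor CD206 of macrophages and of some endothelial cells. It lies on the plus strand of chromosome 2 from 14229392 to 14332057. It stood at 0.417 and 0.487 RPKM in WT undifferentiated, 2.03 and 2.26 in WT differentiating, 0.203 and 0.252 in KO undifferentiated and 0.430 and 0.469 in KO differentiating MSCs. The KO differentiating libraries lay within the range of the WT undifferentiated libraries. In WT MSCs *Mrc1* rose 4.74-fold upon induction (log2 fold change 2.02, standard error 0.13, adjusted p = 4.38e-05), and in KO MSCs it was 1.98-fold higher (0.75, adjusted p = 0.00215), under the fold limit on the log2 scale. The difference between these changes was -1.27 (standard error 0.18, adjusted p = 0.00387). In differentiating MSCs *Mrc1* was 4.77-fold lower in the KO (log2 fold change -2.03, standard error 0.13, adjusted p = 0.000615), and in undifferentiated MSCs the log2 fold change was -0.76 (adjusted p = 0.00857).

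*Csf1r*, from 61100598 to 61132149 on the plus strand of chromosome 18, ran the other way with induction. It stood at 1.53 and 1.43 RPKM in WT undifferentiated, 1.89 and 1.90 in KO undifferentiated, 0.710 and 0.698 in WT differentiating and 0.405 and 0.352 in KO differentiating MSCs. The 4 groups were separate, with the KO libraries the highest before and the lowest after induction. In KO MSCs *Csf1r* fell 5.01-fold (log2 fold change -2.06, standard error 0.09, adjusted p = 4.87e-06), and in WT it was 2.099-fold lower (-0.97, adjusted p = 0.00018), just inside the fold limit. The WT change passed the limit under median centring, at -1.07, and under quantile normalization, at -1.25. The difference between genotypes in this change was -1.09 (standard error 0.12, adjusted p = 0.00192). Between genotypes the log2 fold change was 0.34 (adjusted p = 0.0315) before and -0.75 (adjusted p = 0.00216) after induction, under the fold limit in each state. *Csf1r* lies 15536 bases downstream of *Pdgfrb* on the same strand, a stromal receptor gene at 83.2 and 80.9 RPKM in WT and KO undifferentiated and at 54.7 and 53.9 RPKM in WT and KO differentiating MSCs. Its part in the *Csf1r* values was not tested.

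*Cd14*, from 36725067 to 36726798 on the minus strand of the same chromosome, was the only one of the 10 genes with higher levels in the KO in both states. It stood at 1.23 and 1.47 RPKM in WT undifferentiated, 2.59 and 2.18 in KO undifferentiated, 3.48 and 3.43 in WT differentiating and 4.67 and 4.90 in KO differentiating MSCs. The groups followed each other in that order without overlap. The log2 fold change between genotypes was 0.78 (standard error 0.11, adjusted p = 0.00463) before and 0.46 (standard error 0.11, adjusted p = 0.0196) after induction, under the fold limit in each state. In WT MSCs *Cd14* rose 2.56-fold upon induction (log2 fold change 1.30, adjusted p = 0.000133). In KO MSCs it was 2.01-fold higher (0.98, adjusted p = 0.000288), just inside the limit on the log2 scale.

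*Ptprc* encodes CD45, the phosphatase found on nearly all leukocytes and one of the antigens used for depletion, and lies on the minus strand of chromosome 1 from 138062861 to 138175708. It stood at 0.127 and 0.0979 RPKM in WT undifferentiated, 0.0808 and 0.0808 in WT differentiating and 0.0698 and 0.0243 in KO undifferentiated MSCs. In KO differentiating MSCs it is listed at 0 in replicate 1 and at 0.00405 RPKM in replicate 2, about 1 read. In undifferentiated MSCs about 54 reads in WT and 22 in KO gave a ratio of 0.419 (exact 95% interval 0.243 to 0.699). In differentiating MSCs about 46 reads in WT and 1 in KO gave a ratio of 0.0258 (0.000638 to 0.151). With no minimum on expression, the limma log2 fold change between genotypes was -0.54 (adjusted p = 0.0602) before and -0.83 (adjusted p = 0.0139) after induction. Both were under the fold limit, and 0 of the 5 contrasts gave a call. The WT differentiating values lay below the added 0.1 RPKM, so even a KO value of 0 could not have reached the limit there. The missing call in that state therefore does not describe the size of the change.

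**Figure D3:**
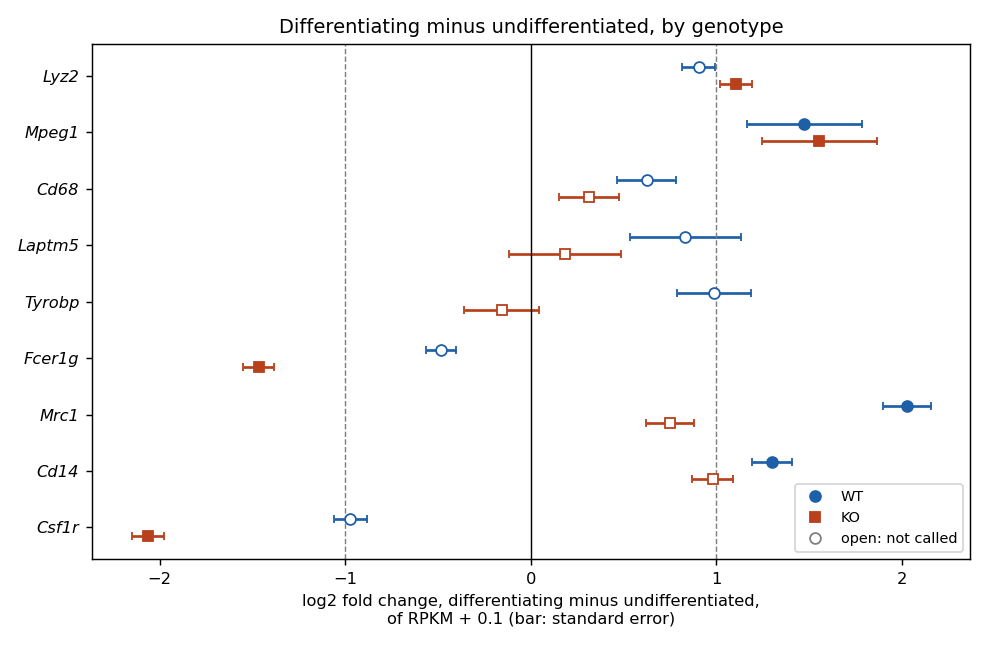
Log2 fold change of RPKM + 0.1, differentiating minus undifferentiated, for the 9 genes tested, in WT (circles) and KO MSCs (squares), with standard errors as bars. Dashed lines mark the fold limit and filled symbols the calls. *Mrc1* is at 2.02 in WT and 0.75 in KO, *Tyrobp* at 0.99 and -0.16, and *Csf1r* at -0.97 and -2.06, whereas *Lyz2* and *Mpeg1* have similar values in both genotypes.

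The 9 genes thus did not vary as a block. Over the 8 libraries, which share groups of 2, Pearson's r of the log2 values was 0.97 for *Tyrobp* with *Laptm5*, 0.93 for *Lyz2* with *Laptm5* and 0.90 for *Lyz2* with *Tyrobp*. It was -0.83 for *Cd14* with *Csf1r*, -0.83 for *Cd14* with *Fcer1g* and 0.75 for *Csf1r* with *Fcer1g*. For *Cd14* with *Lyz2* it was -0.0034. Both of these genes were higher after induction in both genotypes, but they ran opposite ways between genotypes, so this value does not show that they were unrelated. The search for genes outside the set that ran most like the mean of the 9 covered only those averaging 1 RPKM or more. It left out most of the myeloid genes, such as *Itgam* at a mean of 0.126 RPKM, and so cannot rank them. Over the 8 libraries the closest were *Rragc*, *Des*, *Pak1*, *Zfp354c*, *Prrg4*, *Vamp5*, *Gng11*, *Atg4a*, *Zbtb11* and *Adamts12* (r from 0.97 to 0.95). Their changes were small: *Rragc* had group means of 40.1 RPKM in WT undifferentiated, 45.9 in WT differentiating, 37.3 in KO undifferentiated and 39.0 in KO differentiating MSCs.

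Of 38 further myeloid genes, 24 were tested. In KO undifferentiated MSCs 7 of them were lower and 0 higher (1 at an unadjusted p under 0.05), with 1.09% of all genes lower, and the median log2 fold change of the 24 was -0.54. In differentiating MSCs, 10 were lower and 0 higher (0 at an unadjusted p under 0.05), with 1.95% of all genes lower, and the median was -0.98. The fold change was above 0 for 4 of the 24 before and for 2 after induction. The change upon induction differed between genotypes for 0 of the 24 (4 at an unadjusted p under 0.05). *Ctss*, the cathepsin S gene, stood at 0.758 ± 0.0988 RPKM in WT and 0.0967 ± 0.0607 in KO undifferentiated MSCs (SD, n = 2), a log2 fold change of -2.15 (adjusted p = 0.00289). After induction it stood at 2.42 ± 0.390 against 0.252 ± 0.0643 RPKM (SD, n = 2), a log2 fold change of -2.84 (adjusted p = 0.00119). *Ms4a7* was also lower before induction (log2 fold change -1.50, adjusted p = 0.0406).

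*Adgre1*, the F4/80 antigen that defines mouse macrophages, stood at 0.194 and 0.0832 RPKM in WT undifferentiated and at 0.264 and 0.377 in WT differentiating MSCs. In KO MSCs it stood at 0.00681 and 0.00662 before and at 0.0261 and 0.0332 after induction. It was lower in the KO in both states, by log2 fold changes of -1.12 (adjusted p = 0.0292) and -1.69 (adjusted p = 0.00639). These KO values rest on very few reads, about 0.998 and 0.988 before and 3.95 and 4.96 after induction. *Itgam*, the antigen of the CD11b depletion, did not pass the test before induction (-0.70, adjusted p = 0.057) and was lower after it (-1.67, adjusted p = 0.00308). Before induction *Itgam* stood at 0.0908 and 0.139 RPKM in WT and at 0.0463 and 0.0180 RPKM in KO MSCs. These groups did not overlap, and their values lay near or below the 0.1 RPKM added before the log. Its highest library value was 0.356 RPKM, in WT differentiating replicate 2. Not every myeloid gene moved: *Trem2* stood at 0.954 to 1.08 RPKM before and 0.782 to 1.33 RPKM after induction over both genotypes, without a call.

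**Figure D4:**
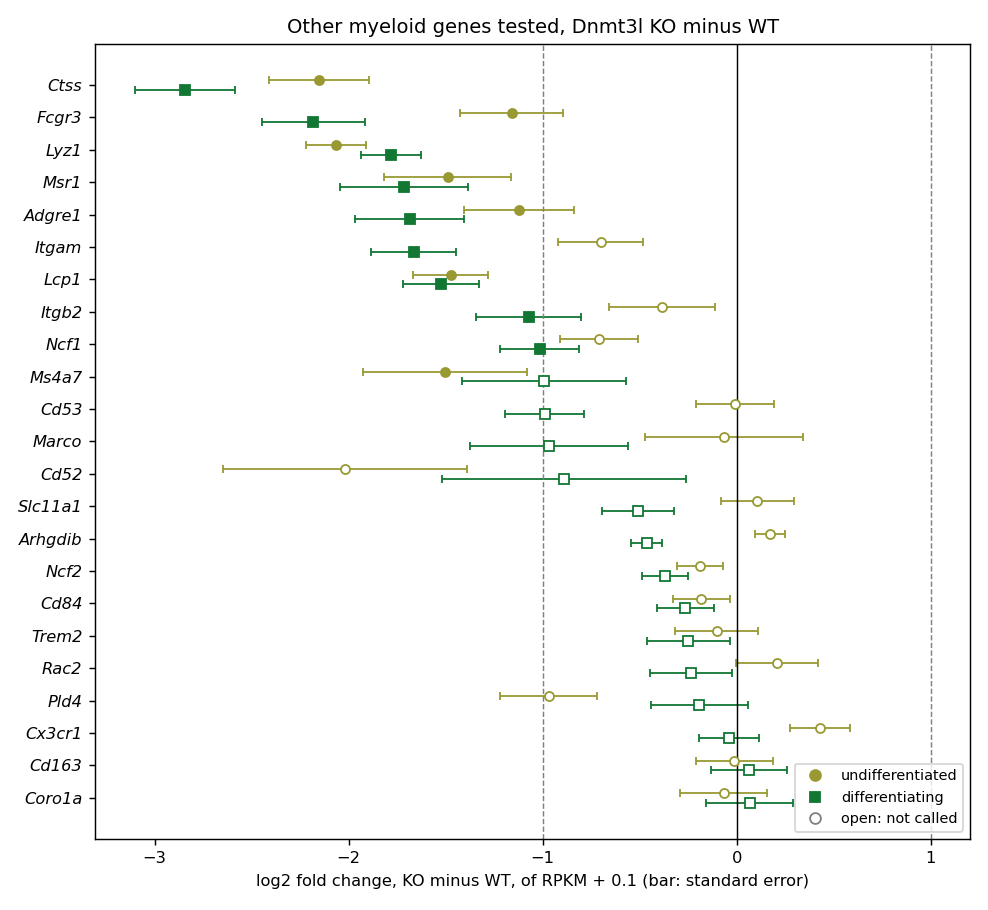
Log2 fold change of RPKM + 0.1, KO minus WT, for 23 of the 24 tested myeloid genes in undifferentiated (circles) and differentiating MSCs (squares), with standard errors as bars and filled symbols for calls. The 7 calls before and the 9 calls after induction that are shown all lie to the left of the dashed line at -1, led by *Ctss* at -2.15 and -2.84.

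Genes whose products act with those of the 10 were also examined. Of these 14 partner genes, of which *Trem2*, *Fcgr1* and *Fcgr3* are also in the myeloid set, 11 were tested. Only *Fcgr3* passed the limits between genotypes, whereas 8 of the 11 before and 7 after induction had an unadjusted p under 0.05. *Fcgr3*, the Fc receptor whose signalling chain is that of *Fcer1g*, was lower in the KO, at -1.16 on the log2 scale (adjusted p = 0.0217) before and -2.18 (adjusted p = 0.00242) after induction. The ligands of the CSF1 receptor changed with state: *Csf1* stood at 334 and 329 RPKM in WT undifferentiated, 474 and 459 in KO undifferentiated, 237 and 245 in WT differentiating and 228 and 223 in KO differentiating MSCs, and fell in the KO (log2 fold change -1.05, adjusted p = 2.46e-06). *Il34* rose in both genotypes, from 5.72 ± 0.303 to 27.9 ± 0.422 RPKM in WT and from 4.67 ± 0.162 to 27.9 ± 0.603 RPKM in KO MSCs (SD, n = 2). *Tlr4*, which senses lipopolysaccharide with CD14, rose in KO MSCs from 13.1 ± 0.415 to 39.7 ± 1.11 RPKM (SD, n = 2, log2 fold change 1.60, adjusted p = 1.86e-06). In WT MSCs *Tlr4* was also higher after induction, at 30.1 ± 1.89 against 16.5 ± 0.208 RPKM (SD, n = 2), without a call. *Sirpa* rose in both genotypes. Of 6 osteoclast genes tested, 0 differed between genotypes (3 in each state at an unadjusted p under 0.05), and *Acp5* rose and *Itgb3* fell upon induction in both. The change of *Oscar* upon induction was more negative in the KO by more than the limits.

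Markers of other cells were examined beside these results. Of 12 T, B and NK cell markers, 3 could be tested and 0 were called (1 upon induction in each genotype at an unadjusted p under 0.05), 5 are listed at 0 in all libraries, and the 12 summed to 0.423 to 0.619 RPKM. Of 3 neutrophil and precursor genes tested, *Camp* was lower in KO differentiating MSCs and *S100a8* rose upon induction in both genotypes, and the list summed to 1.39 to 3.37 RPKM. Of 10 erythroid and megakaryocyte genes, 4 were tested, and the 5 globin genes are listed at 0. *Ppbp*, a platelet chemokine gene, was higher in KO undifferentiated MSCs, at 51.6 ± 1.04 against 16.6 ± 1.26 RPKM (SD, n = 2, log2 fold change 1.63, adjusted p = 0.000592). *Pf4*, another such gene, was lower in the KO in both states, with log2 fold changes of -1.44 (adjusted p = 0.0372) and -1.71 (adjusted p = 0.0175), and after induction 0 of the 4 were higher (1 at an unadjusted p under 0.05). The 4 endothelial genes tested, *Kdr*, *Lyve1*, *Stab2* and *Tek*, all rose upon induction in both genotypes, as *Mrc1* did in WT. In either state 0 of them differed between genotypes by more than the limits (1 before and 4 after induction at an unadjusted p under 0.05). The change of *Tek* upon induction was more positive in the KO by more than the limits. The 7 endothelial markers summed to 0.819 to 0.986 RPKM in WT undifferentiated, 4.82 to 5.63 in WT differentiating, 0.624 to 0.643 in KO undifferentiated and 5.95 to 6.29 in KO differentiating MSCs. Their defining members *Pecam1* and *Cdh5* stayed at or below 0.0843 and 0.0267 RPKM, and the part of such cells in the *Mrc1* values was not tested.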

How the data were processed

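Strand-specific libraries were made from ribosome-depleted total RNA of the 8 MSC samples. The submitters' processing notes name TopHat2 2.1.0, Cufflinks 2.2.1 and Cuffdiff on mm10, and the methods name the iGenomes annotation. The table that the authors deposited gives RPKM for every gene in every library, replicates kept apart. The library scaling within Cuffdiff is not given in the sources used here. Housekeeping genes are among those listed at exactly 0 in some libraries, so a 0 can be a failed estimate. Each column was matched to its sample by the sample's title, and 0 columns were left over. Of the 24346 genes, 4324 are listed at 0 throughout.

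From there, log2(RPKM + 0.1) of the 15342 genes that averaged 0.1 RPKM or more entered limma 3.58.1 under R 4.3.3, with a mean per group, a variance trend, 4 residual and 1.98 prior degrees of freedom, and Benjamini-Hochberg adjustment over all genes. Without this model, an exact two-sided permutation test of 2 against 2 libraries cannot go below p = 0.333. Depth was estimated from the steps between low values of 2852 single-transcript genes, whose transcripts were shortened by 200 nt. Among 3275 low values, 77.4% lay within 0.1 read of a whole read, against 20% by chance, which was too few for a count test. Approximate reads were computed on the longest coding transcript of a gene, which need not be the one expressed. For the intervals they were rounded and treated as counts. There, exact names the conditional binomial method, whereas the reads themselves remain estimates. Positions are from GENCODE M21, start regions from RefSeq (GRCm38.p6). Tables were made in Python 3.11.15 with pandas 2.3.3, and figures in matplotlib 3.10.9.

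The 10 genes and the other gene lists were chosen with earlier results of these data known. All 10 are described. From each other list the text draws on called genes with the largest changes whose groups do not overlap, up to 3 per comparison. It also draws on genes that define a cell type. The 10 genes most like the mean of the set were sought only among those averaging 1 RPKM or more. *Trem2*, *Thy1*, *Arhgdib*, *Itgb2* and the genes next to members were named after their values were seen. A myeloid gene that the lists hold and a gene next to a member are not reported here, and the former is counted but not shown. Alternatives covered the pseudocount, the minimum, scaling, the fold limit, the variance trend, a replicate block, genes listed at 0, the libraries in the fit and each library left out.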

Additional observations from a re-analysis of the deposited data

Results flagged for a closer look

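For 3 of the 9 genes tested the change upon osteogenic induction differed between WT and *Dnmt3l* KO MSCs, by the interaction of genotype and state in limma, where 3.42% of all genes were more negative and 2.76% more positive in the KO. With a pseudocount of 1 the count was 0. The difference of the log2 changes, KO minus WT, was -1.27 for *Mrc1* (standard error 0.18, adjusted p = 0.00387), which was higher after induction in all libraries of both genotypes. It was -1.09 for *Csf1r* (standard error 0.12, adjusted p = 0.00192), which was lower after induction in all libraries of both. It was -1.14 for *Tyrobp* (standard error 0.28, adjusted p = 0.0234), which was higher after induction in both WT libraries and overlapped between the KO groups. Leaving out any 1 of 6 libraries ended the *Tyrobp* call, with adjusted p from 0.0523 to 0.0744. *Fcer1g* followed at -0.98 (adjusted p = 0.00215), just inside the fold limit.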

How the results depend on the processing

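The count of changed genes among the 9 tested stayed within 1.5 times its value in 84 of 99 comparisons with an alternative. The exceptions were as follows. With a pseudocount of 1, the counts became 1 and 2 between genotypes before and after induction, 1 upon induction in WT, 1 upon induction in KO and 0 for the interaction. A minimum of 1 RPKM, which leaves 5 of the genes, gave 1, 2 and 1 for the first 3 of these and 1 for the interaction. With no fold limit they were 7, 8 and 9 for the first 3. A pseudocount of 0.01 gave 5 upon induction in WT, and leaving out a library gave 3 to 5 there. Without one library, the lone sample of its group was assumed to vary like the others. Among values of single genes 809 kept direction and call, 32 gained a call, 23 lost it and 7 changed sign. Those that changed sign were *Laptm5* upon induction in KO MSCs, at -0.17 under quantile normalization and -0.055 to 0.42 with a library left out, and the interaction of *Mpeg1*, at -0.090 with a pseudocount of 1 and -0.23 to 0.39 with a library left out. None of these passed the test in any setting, and the cause was not tested. Median centring moved the median of all genes upon induction in WT to -0.10. Same-numbered libraries of different groups did not deviate together (correlations from -0.0924 to 0.0304). Samples paired by origin could also show little shared deviation, so these correlations cannot decide if the numbers pair the samples. A replicate block left the counts at 3, 5, 3, 4 and 3. Depth limits *Tyrobp*, *Laptm5* and *Ptprc* in KO libraries, with at most about 4.38, 7.596 and 16.4 reads each. It also limits *Fcer1g* in the KO differentiating libraries, with about 10.5 and 10.6 reads. *Adgre1* had at most about 4.96 reads in a KO library.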

Other observations

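The myeloid genes outside the set did not follow a single course upon induction. Among those reported here, *Ctss*, *Itgb2* and *Marco* rose in WT MSCs, and in KO MSCs *Lyz1* rose and *Cd53* fell. *Marco*, a scavenger receptor gene, rose in WT MSCs by 1.87 on the log2 scale (limma, adjusted p = 0.00777), with 0.176 and 0.556 RPKM in the induced libraries. *Cd53* fell in KO MSCs (log2 fold change -1.64, adjusted p = 0.000468). *Arhgdib*, often listed with leukocyte genes, stood at 53.1 to 80.2 RPKM in all libraries.

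*Ppbp*, a platelet chemokine gene, fell upon induction in both genotypes, from 15.7 and 17.5 RPKM in WT and 52.3 and 50.9 RPKM in KO undifferentiated MSCs to 0.322 to 0.493 RPKM in all induced libraries.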
